A study of Mus musculus with 2 samples.

Results

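The genes examined here are 9 that build and process tooth enamel: the enamel matrix protein genes Amelx, Ambn, Enam and Tuft1, the enamel protease genes Mmp20 and Klk4, the secretory pathway genes Fam20a and Fam20c, and the alkaline phosphatase gene Alpl. They were listed by name, and every microarray probe that the platform annotation gives to one of these symbols was taken, which gave 14 probes of 25697 on the array and 9 genes of 16593 named. The tissue was the cervical loop (CL) of the lower incisor, where the stem cells of the dental epithelium renew a tooth that grows throughout life. RNA from the WT sample and from the KO sample was hybridised to Illumina mouse bead arrays, which read each probe as a fluorescence intensity. The KO mice lacked Med1, a subunit of the Mediator coactivator complex, in cells that express Cre recombinase.

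Both groups were C57BL/6 mice at 10 weeks of age and carried the floxed alleles, MED1 fl/fl. Only the KO mice also carried K14Cre, in which the keratin 14 promoter drives Cre in epithelial cells, so that the mesenchyme, bone and blood cells of the dissected tissue were not the target of the deletion. Each sample pooled tissue from 3 mice, and there is 1 column of values per genotype. The titles of both samples name the CL, while the treatment text of the labels speaks of hair-generating KO tissue and the matching tissue of control littermates. The study's methods describe the CL as collected in addition to the hair-generating tissue. Whether the tissue taken differed between the genotypes is not settled by the labels, so tissue makeup and the loss of Med1 cannot be told apart. With 1 column per genotype, no spread between animals could be measured and no test was possible. Every difference below compares these 2 samples. "Higher" and "lower" below describe the KO array beside the WT array.

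Enamel forms in an extracellular matrix that ameloblasts secrete. Amelogenin (AMELX) makes up most of that matrix, while ameloblastin (AMBN) and enamelin (ENAM) are scarcer structural proteins that are needed for mineral ribbons to grow. The metalloproteinase MMP20 cuts the matrix proteins while they are being secreted, and the serine protease KLK4 degrades what remains during maturation, when the crystals thicken. FAM20C is the Golgi kinase that phosphorylates secreted matrix proteins, and FAM20A is a pseudokinase that binds FAM20C and raises its activity. Tissue-nonspecific alkaline phosphatase (ALPL) removes pyrophosphate, an inhibitor of mineral growth, and is strong in the stratum intermedium beside the ameloblasts. In humans, mutations in AMELX, AMBN, ENAM, MMP20, KLK4 and FAM20A cause inherited enamel defects.

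Promoter sequences are shown for the 3 structural matrix genes, whose probes were the brightest of the set, and for Fam20a and Fam20c, whose probes had the widest ratios toward the KO. They come from a table of RefSeq promoters on mouse build GRCm38.p6, in which 8 of the 9 genes were matched by symbol and Tuft1 was not, and each shows the 150 bases before the annotated transcription start, 5′ to 3′ on the gene's strand. Capitals mark the TATA box letters TATAAA and the CCAAT box letters, CCAAT or its reverse complement ATTGG.
Amelx, chrX:169187210-169187359, minus strand: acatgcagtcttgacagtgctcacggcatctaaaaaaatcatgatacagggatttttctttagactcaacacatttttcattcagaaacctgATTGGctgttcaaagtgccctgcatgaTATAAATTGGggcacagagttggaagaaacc
Ambn, chr5:88455841-88455990, plus strand: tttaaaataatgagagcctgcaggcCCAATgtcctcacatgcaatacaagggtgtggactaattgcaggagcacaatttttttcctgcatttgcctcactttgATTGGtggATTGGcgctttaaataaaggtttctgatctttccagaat
Enam, chr5:88487825-88487974, plus strand: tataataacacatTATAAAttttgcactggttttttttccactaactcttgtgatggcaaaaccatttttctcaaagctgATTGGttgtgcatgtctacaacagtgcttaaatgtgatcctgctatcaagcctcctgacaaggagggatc
Fam20a, chr11:109722239-109722388, minus strand: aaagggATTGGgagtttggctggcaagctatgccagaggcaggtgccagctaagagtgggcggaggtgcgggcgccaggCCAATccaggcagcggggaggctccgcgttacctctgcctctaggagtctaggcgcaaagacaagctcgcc
Fam20c, chr5:138754931-138755080, plus strand: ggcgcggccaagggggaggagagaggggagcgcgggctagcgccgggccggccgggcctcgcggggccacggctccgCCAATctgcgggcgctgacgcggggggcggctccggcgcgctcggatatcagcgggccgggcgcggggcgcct
Over the 250 bases before the start, searched on both strands, the Amelx promoter held TATAAA with its first base at -31 and 2 CCAAT matches, the second of which overlaps the TATAAA by 1 base. Ambn, which lies next to Enam in the RefSeq annotation, held 3 CCAAT matches and no TATAAA. Enam held 1 of each, with TATAAA at -137. Mmp20 held TATAAA at -58 and no CCAAT, and Klk4 held neither. Of all 32851 promoter windows in the table, 12.4% held TATAAA within 250 bases, 3.50% held it within the 50 bases nearest the start, and 33.9% held CCAAT.

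The promoters also differed in base composition. The GC content was 38.4% for Amelx, 42.0% for Ambn and 37.6% for Enam, below the median of 52.4% over all windows. It was 45.6% for Mmp20 and 59.6% for Klk4, and these 5 promoters had between 0 and 2 CG pairs. Fam20a had 61.2% GC with 10 CG pairs, and Fam20c had 81.2% GC with 41 CG pairs, against a median of 6 over all windows. Alpl has 2 annotated starts, with 68.4% and 56.0% GC.

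The deletion was read first. Med1 had 1 detected probe, at an intensity of 245.9 in WT and 172.9 in KO, which was 1.74-fold lower after normalization (log2 ratio -0.80). The other 3 Med1 probes were not detected on either array, where detected means a detection p below 0.01 for signal above the negative control probes. Both readings come from tissue that holds epithelial and other cells, and in such a mixture fewer cells of a type and less RNA per cell cannot be told apart.

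All 9 enamel genes were detected. Of their 14 probes, 12 were detected on both arrays and 2 on neither. Intensity ran from 82.5 to 26193.7 on the WT array and from 86.9 to 25358.6 on the KO array, with medians of 112.4 and 115.7, and the dimmest detected probes read 123.5 and 123.1. The enamel genes covered almost all of that range. Probes differ in how strongly they bind their targets, so the place of a probe on the array is not the abundance of its transcript beside that of another gene. Before normalization the detected probes of the KO array had a median log2 ratio of -0.07 to the WT array.

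**Figure D1:**
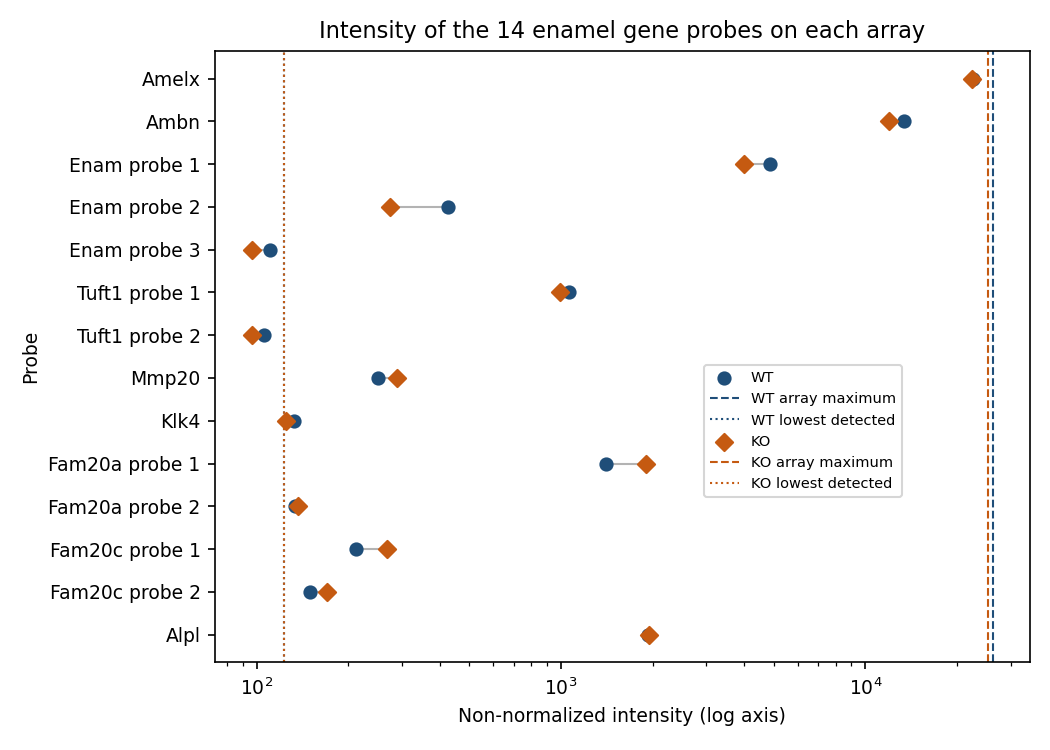
Non-normalized intensity (log axis) of each of the 14 enamel gene probes, with a circle for the WT array and a diamond for the KO array, dashed lines at the brightest probe of each array and dotted lines at the dimmest detected probe, which nearly coincide. Amelx sits at 22621.8 and 22412.7 beside the array maxima, Klk4 at 132.6 and 124.9 beside the detection limit, and the third Enam probe and the second Tuft1 probe lie below it.

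Amelx, which encodes amelogenin, was read by 1 probe (ILMN_2718293) at 22621.8 in WT and 22412.7 in KO. It was the probe of rank 4 on both arrays, at 86.4% and 88.4% of the array maximum, and took 0.233% and 0.248% of the summed intensity of all probes. The samples were 0.01 log2 units apart before normalization, with WT above KO. Quantile normalization gives probes of the same rank the same value, so the normalized level was 14.45 on both arrays and the log2 ratio was 0.00 by construction. Under median scaling the log2 ratio was 0.01 and with no normalization between arrays it was -0.01.

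The Amelx probe lies close to the array maximum. Only 8 WT probes and 7 KO probes read above 80% of the maximum. The 25 brightest probes of each array had 24 in common, with a median absolute log2 ratio of 0.04 and a widest of 0.20. The remaining probe of each array had a wider ratio than any of these: Hba-a1, a haemoglobin gene, read 18394.4 in WT and 13157.9 in KO with a log2 ratio of -0.37, and Bglap2 read 14563.7 and 17365.6 with one of 0.39. These probes, at 52% to 70% of the maximum, thus differed between the arrays. They were picked out by their change of rank, so their ratios do not stand for other bright probes. The probes above Amelx belonged to the ribosomal protein gene Rplp1, to Bglap, which encodes the bone matrix protein osteocalcin, and to 1 probe with no gene name. The 3 named genes nearest to Amelx in intensity were Bglap (23900.0 and 24085.4, log2 ratio 0.04), Rps20 (-0.02) and Rpl38 (0.06), a likeness over 2 arrays only. How far a reading this near the maximum can still follow the amount of transcript was not tested, so the Amelx values do not bound a difference in amelogenin transcript.

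Ambn, which encodes ameloblastin, was read by 1 probe (ILMN_1240933) at 13411.6 in WT and 11929.4 in KO. These are 51.2% and 47.0% of the array maxima and ranks 35 and 43. The log2 ratio was -0.08, or 1.06-fold lower. It lay between -0.17 and -0.08 under the other processing settings, and 72.8% of detected probes had a ratio at least as wide.

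Enam, which encodes enamelin, had 3 probes that gave different readings. The brightest (ILMN_2799517) read 4847.3 in WT and 3997.4 in KO, at ranks 220 and 243, with a log2 ratio of -0.10. The second (ILMN_2644531) read 425.6 and 274.7, at ranks 4112 and 5501, with a log2 ratio of -0.71, or 1.64-fold lower. The third (ILMN_1231606) read 110.4 and 96.9, with detection p of 0.0614 and 0.896, and was not detected on either array. KO was below WT for every Enam probe before normalization, but the detected probes were 0.61 log2 units apart in their ratio.

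That gap was wide for probes of a gene. Over 2007 genes with at least 2 detected probes, the 2 brightest differed by a median of 0.20 log2 units, the 95th percentile of the difference was 0.71, and 8.27% of genes had a gap as wide as that of Enam. The spread per probe was 0.25 log2 units (SD), which holds probe error and transcript differences but no variation between animals. The mean of the detected Enam probes was -0.40, against -0.10 for the brightest alone. Which transcripts each probe binds was not analysed here.

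Tuft1 encodes tuftelin, an acidic protein first described in enamel that other tissues also make. Its detected probe (ILMN_2419185) read 1064.7 in WT and 996.0 in KO, at ranks 1713 and 1632. The log2 ratio was 0.07 with quantile normalization but -0.09 with median scaling and -0.11 with none, so its direction depended on the scaling. Its second probe (ILMN_2461907) read 106.1 and 96.7 and was not detected on either array. Over the 4 matrix genes the median log2 ratio was -0.04.

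The protease genes lay far lower on the array. Mmp20, read by 1 probe (ILMN_1251385), had intensities of 251.3 in WT and 290.2 in KO, at ranks 6124 and 5290 and near 1% of the array maximum (0.959% and 1.14%). KO was 1.33-fold higher, with a log2 ratio of 0.41, and 15.1% of detected probes had a ratio at least as wide. Across the other processing settings it lay between 0.28 and 0.41.

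Klk4, the maturation-stage protease, was close to the limit of detection. Its probe (ILMN_2858200) read 132.6 in WT and 124.9 in KO, with detection p of 0.00376 and 0.00627 and ranks of 10120 and 11094. The log2 ratio was -0.32, with KO lower, and across the other processing settings it lay between -0.39 with no normalization between arrays and -0.11 in the values the authors normalized. Both readings lie close to the array medians of 112.4 and 115.7.

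Fam20a, which encodes the pseudokinase partner of FAM20C, and Fam20c had the widest gene-level ratios of the set at 0.65 and 0.63, but Fam20c was the wider under median scaling and Enam was wider than Fam20a with probes averaged. The brighter Fam20a probe (ILMN_2840430) read 1410.2 in WT and 1905.2 in KO, moving from rank 1272 to rank 750. KO was 1.56-fold higher (log2 ratio 0.65), and of the 8378 detected genes 179 had a ratio at least as high. Its dimmer probe (ILMN_1218877) read 133.9 and 136.8, near the detection limit, with a log2 ratio of 0.04. The probes were 0.60 log2 units apart, a gap reached by 9.07% of genes with at least 2 detected probes.

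Fam20c, which encodes the kinase itself, had 2 probes that read the same way. The brighter (ILMN_1240719) read 211.5 in WT and 268.0 in KO, with a log2 ratio of 0.63, or 1.55-fold higher. The dimmer (ILMN_2723024) read 149.4 and 169.8, with a log2 ratio of 0.45, or 1.37-fold higher. These probes were 0.18 log2 units apart, a gap that 53.8% of genes reached. In the authors' normalized values the ratios were 0.40 and 0.21, smaller but in the same direction.

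Alpl, read by 1 probe (ILMN_2661287), had intensities of 1927.8 in WT and 1940.8 in KO, at ranks 872 and 734. The log2 ratio was 0.19, or 1.14-fold higher, but 0.03 with median scaling and 0.01 with no normalization between arrays. Of detected probes, 45.1% had a ratio at least as wide.

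**Figure D2:**
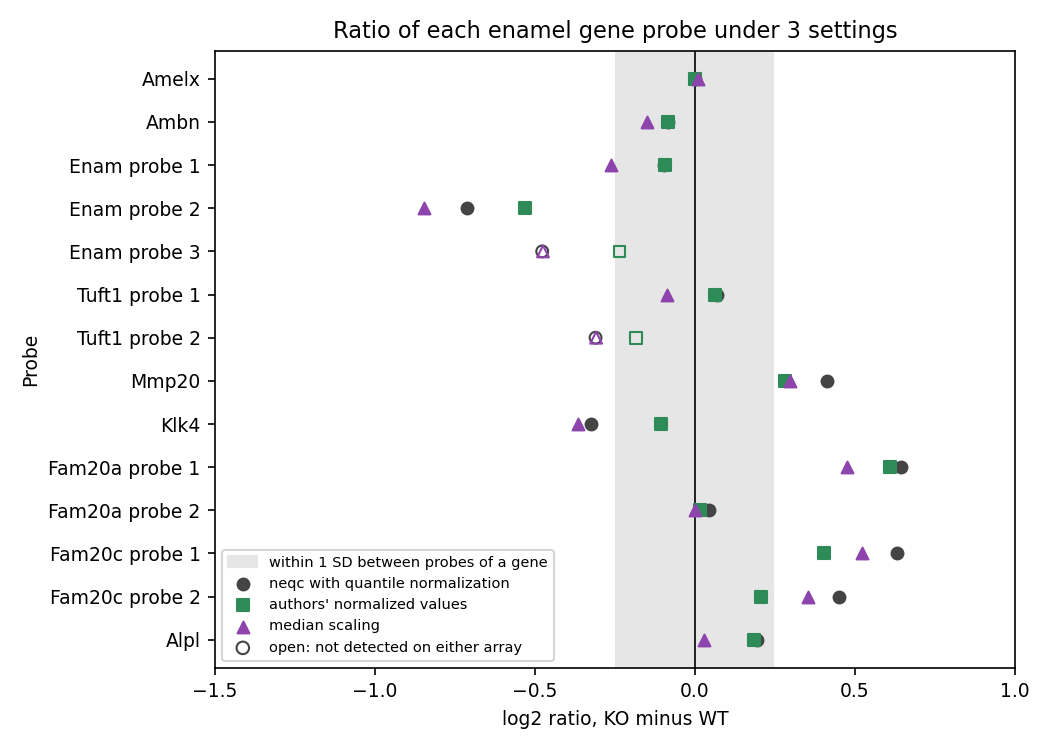
Log2 ratio of KO to WT for the 14 enamel gene probes under 3 processing settings of the same 2 samples (circle, quantile normalization; square, the authors' normalized values; triangle, median scaling), with open symbols for probes detected on neither array and a grey band of 1 SD between probes of a gene on each side of 0. Amelx is at 0.00 with quantile normalization, where its equal rank fixes it, and at 0.00 in the authors' values, which are equal on both arrays. Under median scaling Amelx is at 0.01. Tuft1 probe 1 changes sign with the scaling, and the brighter Fam20a probe and both Fam20c probes lie above 0 in all 3 settings.

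Taking the brightest detected probe for each gene, 5 of the 9 genes were above 0, among them Tuft1 whose sign turned with the scaling, 3 were below, and Amelx was at 0. Of all 8378 detected genes, 4194 were above 0 and 4165 below, a share close to that of the members. A fold limit set below that of the study's methods corresponds to 0.32 log2 units. Mmp20, Fam20a and Fam20c were higher by at least that much, 3 of 9 genes against 11.5% of all 8378 detected genes. Klk4 was just past that limit in the other direction, 1 of 9 against 11.7%. Fam20a and Fam20c were at least 1.5-fold higher, 2 of 9 against 3.02% of all, and no member was at least 1.5-fold lower, against 2.92%. The count of 2 rests on values just above that limit and was 0 under median scaling. The median log2 ratio over the 9 genes was 0.07, beside 0.00 over all detected genes, and it was 0.13 without Amelx and 0.19 without Amelx and Ambn. Median scaling moved the median of all detected probes to -0.12, against which Fam20a stood at 0.48, Fam20c at 0.52, Mmp20 at 0.30 and Alpl at 0.03. With that scaling 2562 of all detected genes were above 0 and 5816 below, and 596 were higher and 1776 lower by at least 0.32 log2 units.

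How wide a ratio is depends on how bright the probe is. The detected probes were put in 5 bands by mean level, each with 20% of the probes, and the central 95% of log2 ratios ran from -0.79 to 0.82 in the dimmest band and from -0.37 to 0.38 in the brightest. The dimmer Fam20a probe and Klk4 were inside the range of the dimmest band. Of the 6 member probes in the brightest band, Amelx, Ambn, the first Enam probe, Tuft1 and Alpl were inside its range, and the brighter Fam20a probe was outside it. In the middle band, with a range of -0.57 to 0.53, the brighter Fam20c probe at 0.63 and the second Enam probe at -0.71 were outside and Mmp20 was inside. The dimmer Fam20c probe, at 0.45, was inside the range of its band, which ran from -0.64 to 0.61. Outside thus were 3 of 12 probes, where 5% of all probes lie outside by definition. For each of these 3 probes, the other detected probe of the same gene was inside the range of its own band.

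**Figure D3:**
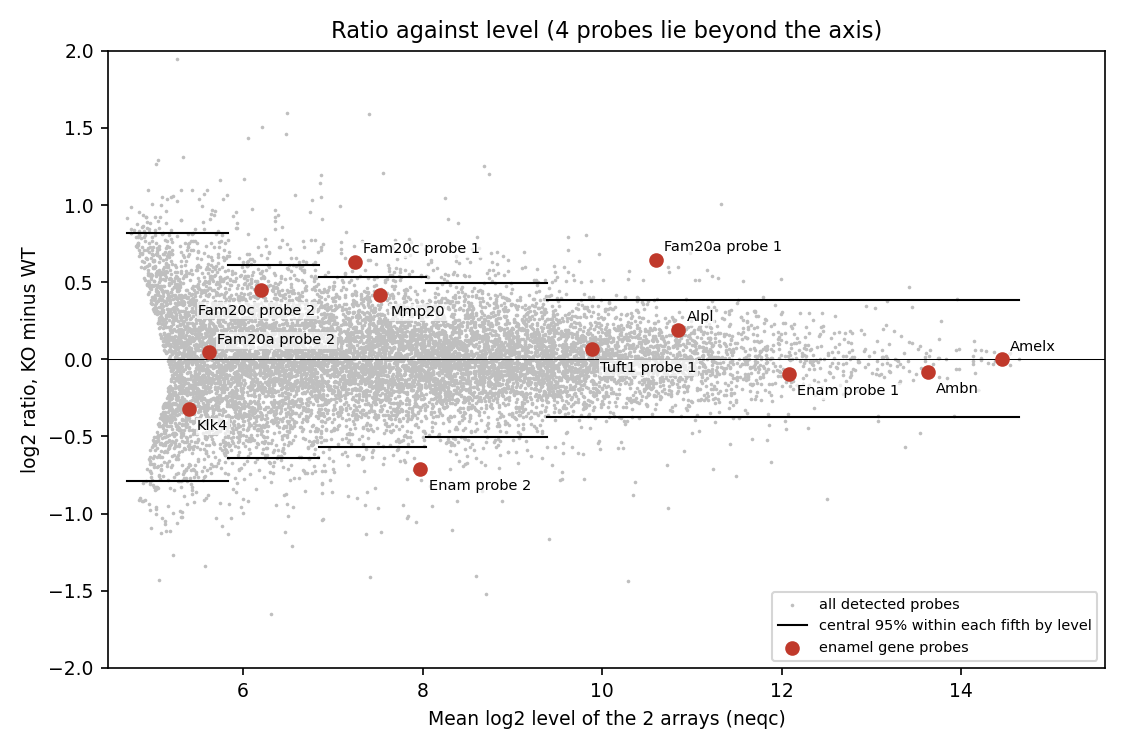
Log2 ratio of KO to WT against the mean log2 level of the 2 arrays for all detected probes (grey) and the 12 detected enamel gene probes (red), with bars at the central 95% of ratios in each of the 5 level bands. The brighter Fam20a probe (0.65), the brighter Fam20c probe (0.63) and the second Enam probe (-0.71) lie outside the bars of their bands, and Amelx sits at 0.00 at the bright end.

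Other genes of enamel formation were read from lists. Of the proteins that attach epithelium to its basal lamina, all 4 named on the array were detected and above 0, with a median log2 ratio of 0.29, while under median scaling 3 were above 0, with a median of 0.15. Itgb6, an integrin subunit of ameloblasts, was at 0.40, although its other 2 probes were both at -0.06. Col17a1, a hemidesmosome collagen, was at 0.30 (other probes at 0.56 and 0.52) and Lamb3, a laminin chain, at 0.28. Itgb4 was at 0.02 after normalization, while its intensity was 3674.1 in WT and 3244.3 in KO. Of the other genes mutated in human amelogenesis imperfecta, 9 of 14 were detected. With quantile normalization 7 of them were above 0 (median 0.19), and under median scaling 6 were (median 0.15). The middle value of 0.19 was that of Slc13a5, with detection p of 0.01003 in WT and 0.00251 in KO. Only its KO reading passed the limit of 0.01, so the filter favoured its place above 0. Restricting the list to genes detected on both arrays gave a median of 0.24. The widest were Sp6, the transcription factor epiprofin, at 0.60 (1550.9 in WT and 2052.3 in KO, other probes at 0.08 and 0.21), Rogdi at 0.46, the calcium sensor gene Stim1 at 0.44 and Relt at 0.35.

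Of the ameloblast transcription factors, which also hold Sp6, all 10 were detected and 9 were above 0 with quantile normalization, with a median of 0.10, but under median scaling 7 lay below 0 (median -0.04). Msx2 was at 0.35, Isl1 at 0.18 and Dlx1 at -0.16. The relatives of Fam20a and Fam20c gave other values. Of the other FAM20 and secretory pathway kinase genes 7 of 8 were detected, of which 2 lay above 0 and 5 below it (median -0.20). Fam20b, which encodes a xylose kinase of proteoglycan synthesis, was at 0.01, with intensities of 240.4 and 231.7. Pkdcc, which encodes a secreted tyrosine kinase, was at -0.51, and Dipk1b was at -0.46 with another probe at 0.06.

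Substrates and partners were measured less fully. Of the small integrin-binding glycoproteins that FAM20C is known to phosphorylate, Ibsp, bone sialoprotein, was detected at 1074.6 in WT and 810.0 in KO, with a log2 ratio of -0.28. Its other probe read 259.8 and 244.0, with a log2 ratio of -0.04. Dspp, Dmp1 and Mepe were not detected. Of the phosphate and pyrophosphate handling genes that work beside ALPL, 2 of 5 were detected, with Slc20a2 at 0.20 and Ank at -0.02, and their median turned from 0.09 to -0.07 under median scaling. Of the other proteases and inhibitors 9 of 15 were detected, 2 above 0 and 7 below, with a median of -0.08. Ctsc was at -0.34 (other probes at -0.07 and -0.54), the metalloproteinase inhibitor genes Timp3 and Timp2 at -0.29 and -0.27, and Klk10 at 0.27. Klk5, Klk6, Klk7, Klk11, Klk13 and Klk14 were not detected.

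**Figure D4:**
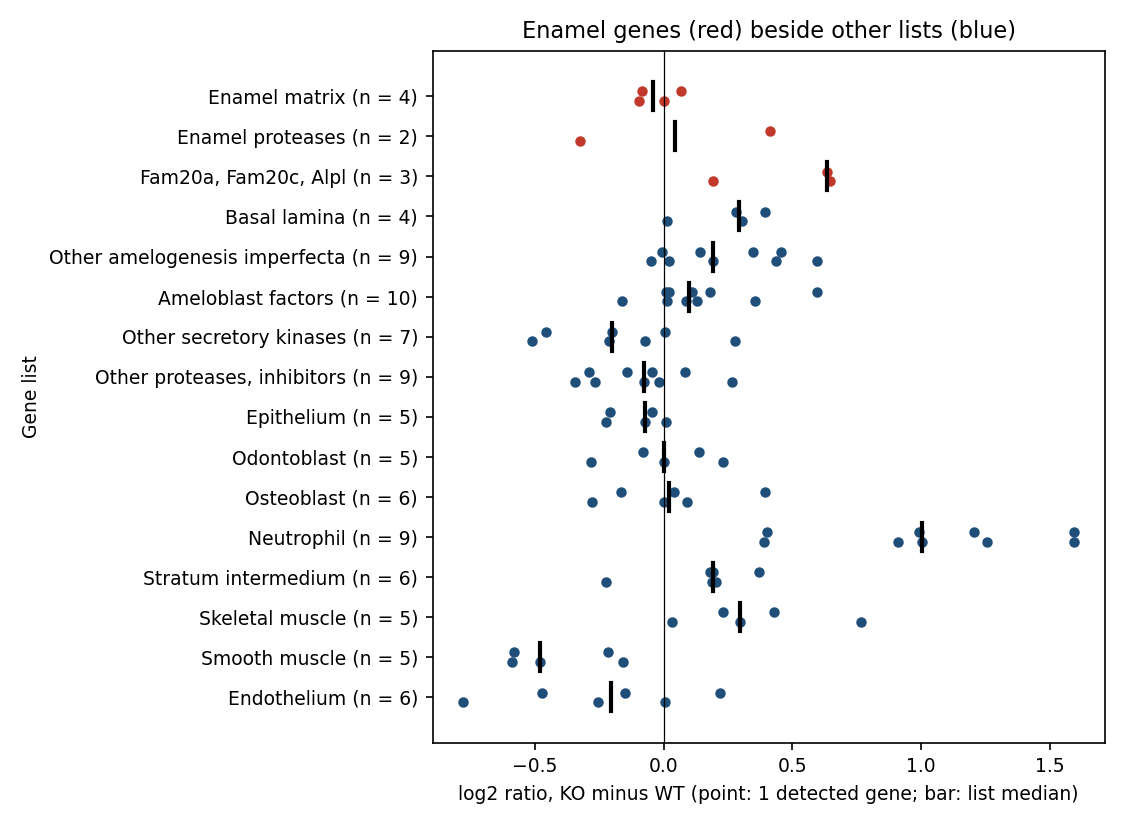
Log2 ratio of KO to WT for each detected gene (points) of the enamel gene groups (red) and of other lists (blue), some of which share genes, with each list's median as a bar. The FAM20 and ALPL group of 3 genes, read by their brightest probes, has a median of 0.63. The other secretory pathway kinases have one of -0.20, beside 0.00 for all detected genes. With probes averaged, Fam20a was at 0.34, Fam20c at 0.54 and Alpl at 0.19, and the median of the other kinases was -0.20.

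The makeup of the samples was read from cell type markers. Of the dental and basal epithelium markers 5 of 6 were detected, with a summed intensity of 26859.9 in WT and 23205.2 in KO and a median log2 ratio of -0.07. Krt14, which marks the cells that the deletion was aimed at, read 14400.6 and 13241.5 and had a log2 ratio of 0.01 after normalization. Of the stratum intermedium markers, which include Alpl, 6 of 8 were detected, with a summed intensity of 5629.6 and 5524.4. Their median was 0.19, or 0.03 under median scaling, with 5 above 0 and 1 below in the main setting. Notch1 was at 0.37 and Krt5 at -0.23. All 6 osteoblast markers on the array were detected, with a summed intensity of 49419.7 and 51075.9 and a median of 0.02, or -0.12 under median scaling. RNA of bone or other mineralizing cells was thus present in both samples. Bglap2 was at 0.39, but it is a near-identical copy of Bglap and the probes may not separate them, so the sum may count 1 signal more than once. Before normalization the osteoblast markers other than Bglap and Bglap2 read lower in KO. Of the odontoblast markers 5 of 7 were detected, with a summed intensity of 10616.7 and 9428.2 and a median of 0.00, or -0.16 under median scaling, and the defining markers Dspp and Dmp1 were not detected. Fam20c and Alpl are also known from osteoblasts and odontoblasts.

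Marker lists of other cell types also differed between the 2 samples. All 9 neutrophil markers were detected and above 0, with a median log2 ratio of 1.0 and a summed intensity of 3719.9 in WT and 6273.3 in KO. Retnlg (137.2 and 237.3) and Lcn2 (186.3 and 366.4) were the widest, and neutrophils are also known to make ALPL. Of the skeletal muscle markers 5 of 7 were detected and all 5 were above 0, with a median of 0.30 and a summed intensity of 1091.9 and 1223.4. All 5 detected smooth muscle markers were below 0, with a median of -0.48 and a summed intensity of 16063.8 and 10735.5, and of the 6 endothelial markers 4 were below 0 (median -0.20), at a summed intensity of 3124.7 and 2233.0. Elane, Ckm and Kdr, of the neutrophil, skeletal muscle and endothelial markers, were detected on the KO array only. The detection filter thus favoured their place above 0. The part of these cell types in the enamel gene ratios was not tested. The sources used here do not give the sex of the pooled mice, and the samples differed in sex-linked transcripts, with Xist at 837.2 in WT and 321.9 in KO and the Y-linked gene Eif2s3y detected only in KO at 160.6. Amelx lies on the X chromosome, and the part of sex in any ratio was not tested.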

How the data were processed

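The authors hybridised biotin-labelled RNA to Illumina MouseRef-8 v2 arrays and read them in GenomeStudio. The deposited table of non-normalized intensity per probe, with a detection p-value per array, was the start of all values here. The detection p-value columns carry no sample name, and each was read with the intensity column on its left. The labels speak of n of 3, but each genotype has 1 column, and the sources used here do not say whether it is 1 array or a mean.

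Intensities were background-corrected by normexp with negative controls inferred from the detection p-values, given an offset of 16, quantile normalized and put on the log2 scale (limma 3.58.1 neqc, R 4.3.3). Ratios are KO minus WT on that scale, which understates differences of dim probes. A probe counted as detected with a p below 0.01 on at least 1 array, and 11742 of 25697 probes did. A gene was read by its brightest detected probe, through the platform annotation, which named 23978 probes and left 1719 unnamed. A second deposited table, intensity that the authors normalized, served as an alternative.

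Named in the text are all member probes, Med1, up to 4 genes with the widest ratios of each list that were detected, and the 3 genes nearest Amelx in intensity. Others (Fam20b, Itgb4, Krt14, Slc13a5, Elane, Ckm, the sex-linked genes and those not detected) were added after their values were seen. Rplp1 and Hba-a1 were named for their place among the brightest probes. The members and lists were chosen with earlier results of these data known. The fold limit of 1.5 is that of the study's methods, and a lower one of 0.32 log2 units was added.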

Additional observations from a re-analysis of the deposited data

How the results depend on the processing

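The 9 gene ratios were recomputed under 9 alternatives each. For 33 of the 81 values the filters and the averaging allowed no change, since the filters keep the same probe and 6 genes have no second detected probe to average. Of the other 48, 46 moved by less than the spread per probe of 0.25 log2 units. The exceptions were Enam at -0.40 and Fam20a at 0.34 with probes averaged, where 3 genes could move. Fam20c was then at 0.54. The 46 include Amelx with no background correction and with an offset of 50, where its equal rank again fixed the ratio at 0.00. In the authors' values Amelx was also equal on both arrays (22517.2). The alternatives are not separate checks. The authors' values and those with no background correction gave nearly equal ratios, with Fam20c at 0.40 and Alpl at 0.18 in both. Median scaling and no normalization between arrays differ by the same shift for every gene. The median over the 9 genes lay between -0.01 and 0.19. The number of genes at least 1.5-fold higher, 2 in the report, was 1 in the authors' normalized values, 1 with no background correction and 1 with an offset of 50, and it was 0 under median scaling, 0 with no normalization between arrays and 0 with probes averaged. The number lower by at least 0.32 log2 units, 1 in the report, was 0 in the authors' values, 0 with no background correction, 0 with an offset of 50, and 2 with probes averaged. The number higher by at least as much stayed between 2 and 3. Of the 15 other list medians 4 turned below 0 without quantile normalization: ameloblast factors (-0.06 with no normalization between arrays), phosphate genes (-0.09), osteoblast (-0.15) and odontoblast markers (-0.18). The Med1 log2 ratio was -0.46 in the authors' values and with no background correction. No paired analysis was possible because there is 1 sample per genotype, and no replicate could be left out. The limits are the single column per genotype, pooled mice of unstated sex, an Amelx signal near the array maximum, a Klk4 signal near background, and tissue of mixed cell types.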
